A study of Homo sapiens with 9 samples.

Results

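Inflammatory cytokines and chemokines were read on 11 probes of 9 genes, out of 47317 probes on each array. The genes were interleukin-6 (IL6), CXCL8 (interleukin-8, 2 probes), CXCL2, CCL20, IL1A, IL1B, CCL5 (2 probes), CXCL10 and CXCL11. The probes were taken from a given list that pairs probe numbers with genes, and the deposited files hold the numbers alone, so the gene names are those of the list. The cells were of the KYSE30 line, derived from a human squamous cell carcinoma of the esophagus, transfected with Lipofectamine and harvested on day 3. The 9 groups were a negative control, miR-32, miR-455, miR-181a, miR-181b, an siRNA against PIK3R1 (siPIK3R1), an siRNA against PIK3R3 (siPIK3R3), a miRNA combination and an siRNA combination, with 1 array each. PIK3R1 and PIK3R3 encode regulatory subunits of the lipid kinase PI3K. No sequence is given for the control, no make-up or dose for the combinations and no arm for the microRNAs, no untransfected culture is among the groups, and transfection is common to all of them, control included.

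Cytokines and chemokines are secreted proteins through which epithelial cells call in and instruct leukocytes. The transcription factor NF-kB, activated by injury, bacterial products and IL-1 or TNF, drives genes such as CXCL8, CXCL2, CCL20, IL6, IL1A and IL1B, here called NF-kB type. Interferons and viral RNA act through the IRF and STAT factors, which drive CXCL10 and CXCL11, here called interferon type. CCL5 is known to need NF-kB and IRF factors and is kept apart. The class names are labels, and do not mean that NF-kB has no part in CXCL10 and CXCL11. The activators named are examples, and do not mean that RNA cannot raise NF-kB-type genes. CXCL8 and CXCL2 attract neutrophils through the receptor CXCR2, CCL20 attracts cells that carry CCR6, CCL5 attracts T cells and monocytes, and CXCL10 and CXCL11 attract T cells that carry CXCR3.

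Promoter sequences of these genes are shown because the classes are defined by factors that bind promoters. RefSeq promoters (GRCh38.p14) were found for 8 of the 9 genes, all but CCL5, with 2 windows for IL1A, and the 250 bases before the transcription start were searched on both strands. The letters searched were GGANNTTCC, a core of the NF-kB (kappaB) site, and GAAA followed after any 2 bases by GAAA, a core of the interferon-stimulated response element (ISRE), and no match of one overlapped a match of the other. Of all 35116 promoter windows, 3.84% held the first and 3.02% the second. The letters were chosen with the promoters in view, so these shares do not test the members. The stretches below hold every match in these genes, each with 20 flanking bases on its outer sides and the matches in capitals.
IL6, chr7:22727108-22727156, plus strand: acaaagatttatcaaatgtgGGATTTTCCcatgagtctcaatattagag
CXCL8, chr4:73740458-73740506, plus strand: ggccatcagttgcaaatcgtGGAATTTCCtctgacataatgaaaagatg
CXCL2, chr4:74099244-74099292, minus strand: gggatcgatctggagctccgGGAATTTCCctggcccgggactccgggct
CXCL10, chr4:76023645-76023738, minus strand: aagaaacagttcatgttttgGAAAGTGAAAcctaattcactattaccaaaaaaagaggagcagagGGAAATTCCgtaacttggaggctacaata
CXCL11, chr4:76036117-76036165, minus strand: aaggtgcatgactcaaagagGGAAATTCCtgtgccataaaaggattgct
The first capitals of CXCL10 are the ISRE match and all other capitals are GGANNTTCC matches. CXCL10 was the only one of the 8 genes with both, and IL1A, IL1B and CCL20 held neither in these windows. The interferon-type genes CXCL10 and CXCL11 each held a GGANNTTCC match, and CXCL11 held no ISRE match. The matches thus did not sort the genes by class.

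Among the transfected RNAs, miR-181a and miR-181b are shown because their 5p arms share a seed while the cytokine values of their arrays differed. The mature sequences of the 5p arms in RefSeq (GRCh38.p14) are given 5′ to 3′ with the seed, bases 2 to 8, in capitals, and the labels do not say that the 5p arm was the one used. Each is encoded at 2 loci, and the chromosome 1 locus is given.
hsa-miR-181a-5p, chr1:198859108-198859130, minus strand: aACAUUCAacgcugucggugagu
hsa-miR-181b-5p, chr1:198858925-198858947, minus strand: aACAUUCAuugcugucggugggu
They differ at 3 of 23 bases, 0 of them in the seed.

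Signals were background corrected and quantile normalized together, and a level below is a log2 value of the normalized intensity, to which an offset of 16 had been added. A probe counted as detected at a detection p under 0.01, which 14304 to 15775 probes met per array. The mean raw signal was 270 on the miRNA combination array and 223 on the siRNA combination array, against 343 to 468 on the others. With 1 array per group no value has a replicate error, no test was possible, and a difference may be one between cultures. Levels were not compared between probes. Fewer expressing cells and less RNA per cell cannot be told apart in RNA from whole cultures. Knockdown of the siRNA targets and the markers of squamous and other cell types were not analysed here, because no other probe was given a gene name.

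IL6 was detected on all 9 arrays, was lowest in the control and was higher in every other group. This cytokine signals through STAT3 and drives the acute phase response. Its log2 level was 8.99 in the control, 9.88 in miR-181a, 10.39 in siPIK3R1, 10.55 in miR-32, 11.02 in miR-455, 12.03 in the miRNA combination, 12.19 in miR-181b, 12.44 in siPIK3R3 and 12.93 in the siRNA combination. As quantile normalized, the last 4 arrays lay above the first 5 by a gap of 1.01, from miR-455 to the miRNA combination. The step from the control to miR-181a was 0.89. In raw signal the miRNA combination, a dim array, had 3051 and miR-455 had 2797. With arrays scaled to an equal median the gap was narrower, and smaller than the step from the control to miR-181a. The size of the gap thus depends on the scaling. Raw signal ran from 619 in the control to 6051 in siPIK3R3, and the siRNA combination, the dimmer array, had 4552. The IL6 probe was 15.3-fold over the control in the siRNA combination, 10.9-fold in siPIK3R3, 9.17-fold in miR-181b and 8.22-fold in the miRNA combination. It was 4.08-fold over it in miR-455, 2.95-fold in miR-32, 2.63-fold in siPIK3R1 and 1.85-fold in miR-181a.

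CXCL8 was not detected in the control by either probe and was detected by both on the other 8 arrays. On ILMN_2184373 the level was 5.70 in the control, 8.01 in miR-32, 8.02 in miR-181a, 8.05 in siPIK3R1, 9.18 in miR-455, 10.41 in siPIK3R3, 11.12 in the miRNA combination, 11.28 in miR-181b and 11.65 in the siRNA combination. On ILMN_1666733 it was 5.29 in the control, 6.62 in miR-32, 6.65 in miR-181a, 7.07 in siPIK3R1, 7.55 in miR-455, 8.30 in siPIK3R3, 9.44 in miR-181b, 10.07 in the miRNA combination and 10.69 in the siRNA combination. Both probes thus put the siRNA combination first, siPIK3R3 next below the top 3, miR-455 below it and the control last, and they exchanged only miR-181b and the miRNA combination. Because the control was not detected, its level was set to the lowest level of a detected probe there (5.78), and folds over it are lower bounds.

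On these bounds CXCL8 was at least 58.5-fold over the control in the siRNA combination, at least 45.4-fold in miR-181b, at least 40.7-fold in the miRNA combination and at least 24.8-fold in siPIK3R3 by ILMN_2184373. By ILMN_1666733 the same arrays were at least 30.2-fold, 12.6-fold, 19.7-fold and 5.77-fold over it. In miR-181a, ILMN_2184373 was at least 4.75-fold over the control and ILMN_1666733 at least 1.83-fold.

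CXCL2 followed CXCL8 in its order of arrays. The CXCL2 level was 5.40 in the control, where the probe was not detected, 5.84 in miR-32, 6.37 in miR-181a, 6.57 in siPIK3R1, 6.76 in miR-455, 7.80 in siPIK3R3, 8.38 in miR-181b, 8.80 in the miRNA combination and 9.02 in the siRNA combination. This is the array order of ILMN_1666733 without exception. The bound on the fold over the control was 9.46 in the siRNA combination, 8.15 in the miRNA combination, 6.09 in miR-181b and 4.08 in siPIK3R3, and it was under 2 in the other 4.

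IL1A and IL1B, the interleukin-1 cytokines that themselves activate NF-kB, were each detected on the same 4 arrays, and CCL20 on 3 of them. IL1A had levels of 8.74 in the siRNA combination, 7.41 in siPIK3R3, 6.95 in the miRNA combination and 6.66 in miR-181b, and between 4.73 and 5.25 on the 5 arrays where it was not detected. IL1B had levels of 6.40 in miR-181b, 6.57 in siPIK3R3, 6.70 in the miRNA combination and 7.99 in the siRNA combination, and between 4.88 and 5.03 elsewhere. CCL20 had levels of 6.61 in the miRNA combination, 7.09 in siPIK3R3 and 8.04 in the siRNA combination. It was not detected in miR-181b, at 5.79 and a detection p of 0.0221, and lay between 4.62 and 5.13 on the other 5 arrays. In the siRNA combination IL1A was at least 7.80-fold, CCL20 at least 4.80-fold and IL1B at least 4.64-fold over the control. The bounds were smaller on the other arrays, where IL1B had 1.54-fold in miR-181b, 1.74-fold in siPIK3R3 and 1.90-fold in the miRNA combination.

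**Figure D1:**
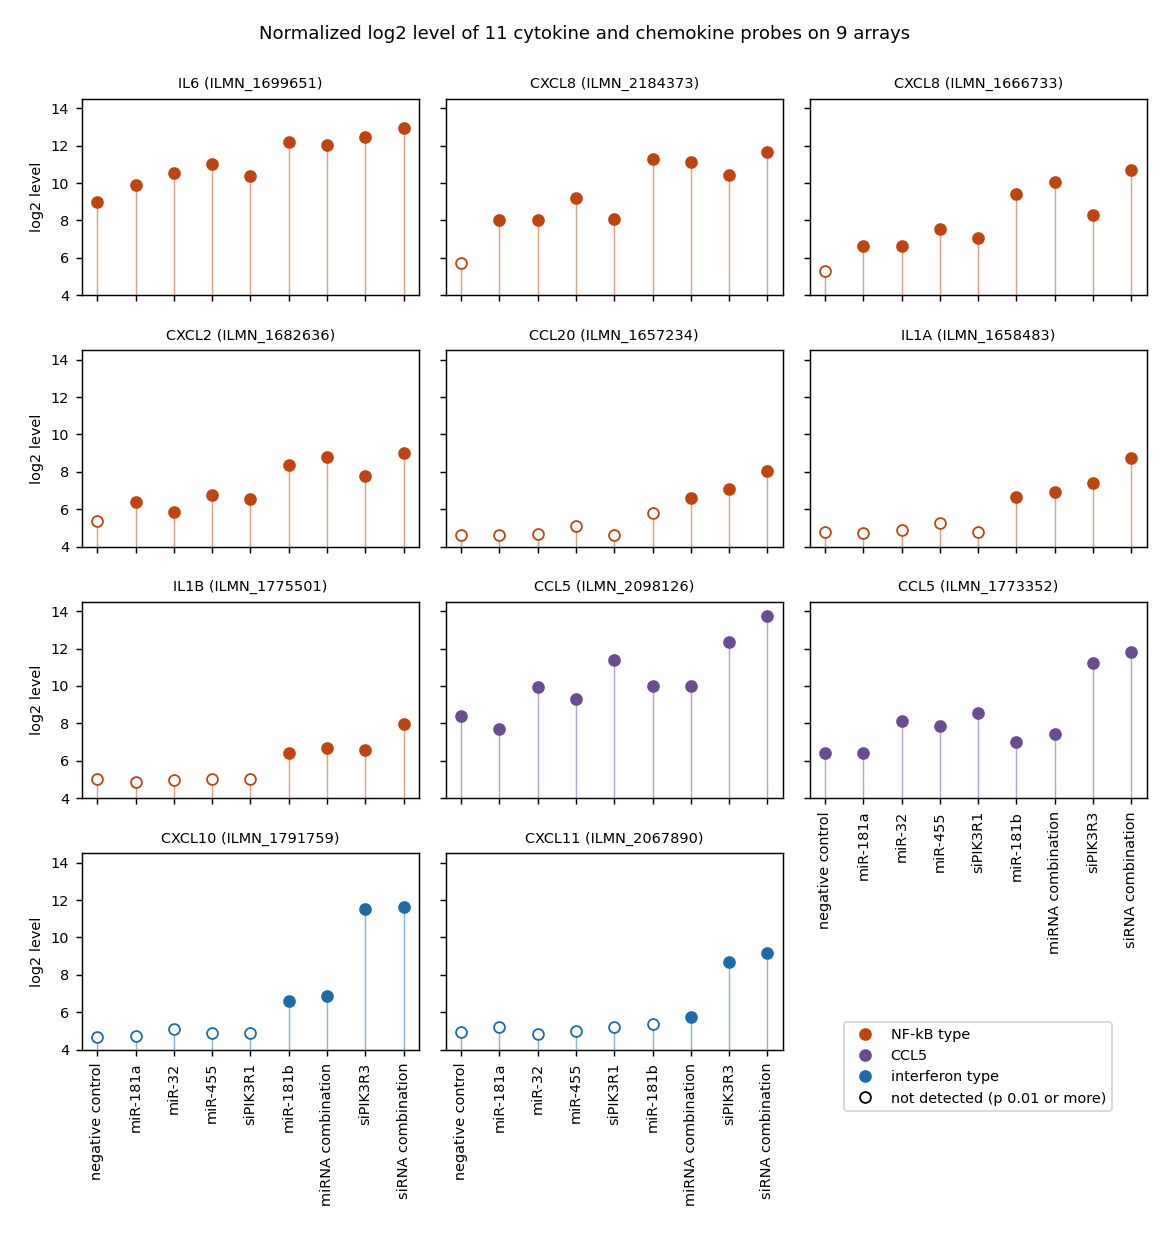
Normalized log2 level (vertical axis) of each of the 11 probes on each of the 9 arrays (horizontal axis), 1 array per group, with filled points detected and open points not detected. IL6, CXCL8 and CXCL2 are high on the 4 rightmost arrays, miR-181b included, while CXCL10 and CXCL11 stand high on siPIK3R3 and the siRNA combination alone.

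CCL5 was detected on all 9 arrays by both probes and had its highest levels in siPIK3R3 and the siRNA combination. On ILMN_1773352 the level was 6.41 in miR-181a, 6.44 in the control, 7.03 in miR-181b, 7.43 in the miRNA combination, 7.85 in miR-455, 8.11 in miR-32, 8.58 in siPIK3R1, and 11.20 and 11.81 in siPIK3R3 and the siRNA combination. On ILMN_2098126 it was 7.72 in miR-181a, 8.38 in the control, 9.32 in miR-455, 9.96 in miR-32, 10.00 in both miR-181b and the miRNA combination, 11.39 in siPIK3R1, and 12.37 and 13.72 in siPIK3R3 and the siRNA combination. The probes agreed on the top 3 arrays and the lowest 2, and differed in the order of the middle 4. Fold over the control was 40.5 and 41.4 in the siRNA combination by ILMN_2098126 and ILMN_1773352, 15.9 and 27.2 in siPIK3R3, and 8.09 and 4.41 in siPIK3R1. In miR-181b it was 3.09 by the first probe and 1.51 by the second, the widest gap between them (1.04 on the log2 scale). In miR-181a the log2 differences were -0.65 and -0.03, and these were the only differences below 0 among all members and transfections. Only CCL5 and IL6, detected in the control, could give such a difference.

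CXCL10 and CXCL11, the interferon-type chemokines, were near background on most arrays and high on 2. CXCL10 had a level of 11.61 in the siRNA combination and 11.55 in siPIK3R3, of 6.89 in the miRNA combination and 6.62 in miR-181b, and of 4.69 to 5.09 on the other 5 arrays, where it was not detected. Its raw signal was 3335 in siPIK3R3 and 1834 in the siRNA combination, against 61.8 in the control. CXCL11 had a level of 9.18 in the siRNA combination and 8.68 in siPIK3R3. It was barely detected in the miRNA combination, at 5.75 and a detection p of 0.00909, and lay between 4.82 and 5.37 on the 6 arrays where it was not detected. CXCL10 was at least 56.9-fold over the control in the siRNA combination and at least 54.6-fold in siPIK3R3. It was at least 2.17-fold over it in the miRNA combination and at least 1.80-fold in miR-181b. CXCL11 was at least 10.6-fold and at least 7.50-fold over the control in the siRNA combination and siPIK3R3, and in the miRNA combination it lay below the floor set for the control, so no fold is given.

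Counted over the list, the siRNA combination had all 11 probes at least 2-fold over the control, and siPIK3R3 had 10, all but IL1B. Over all probes compared, 6.53% of 16413 were as much higher in the siRNA combination and 3.53% of 15918 in siPIK3R3. The miRNA combination had 7 higher probes, against 4.32% of 16555 probes, and these were IL6, both CXCL8 probes, CXCL2, IL1A, CXCL10 and 1 CCL5 probe. The miR-181b array had 5, against 1.95% of 15917, namely IL6, both CXCL8 probes, CXCL2 and 1 CCL5 probe. A probe that the control did not detect was compared only where the transfection detected it, and then came out higher or, as CXCL11 in the miRNA combination, with no fold, so these counts describe the list and do not test it. That held for 8 of the 11 probes, all but IL6 and the CCL5 pair.

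The other 4 transfections had 6 members each to compare. In siPIK3R1, 5 were at least 2-fold higher, against 2.97% of 15985 probes, namely IL6 and both probes each of CXCL8 and CCL5. In miR-32, 4 were higher, against 0.505% of 16449, namely IL6, 1 CXCL8 probe and both CCL5 probes. In miR-455, 4 were higher, against 0.596% of 16096, namely IL6, both CXCL8 probes and 1 CCL5 probe. In miR-181a the single higher probe was CXCL8 ILMN_2184373, against 0.284% of 15871. Only IL6 and the CCL5 pair, detected in the control, could have come out lower. No member was 2-fold lower than the control on any array. Over all probes the share as much lower was 7.01% in the siRNA combination, 5.64% in the miRNA combination, 1.88% in siPIK3R1, 1.61% in siPIK3R3, 1.56% in miR-181b, 0.529% in miR-181a, 0.186% in miR-455 and 0.164% in miR-32.

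By class, the NF-kB-type probes that could be compared numbered 7 in siPIK3R3 and the combinations, 6 in miR-181b and 4 in the others, so the medians below are not over 1 set of probes, and all but IL6 gave lower bounds. Their median log2 difference from the control was 3.24 in the siRNA combination, 3.03 in the miRNA combination, 2.90 in miR-181b and 2.03 in siPIK3R3. That median was 1.90 in miR-455, 1.34 in siPIK3R1, 1.20 in miR-32 and 0.88 in miR-181a. The CCL5 pair had a median of 5.36 in the siRNA combination, 4.38 in siPIK3R3, 2.58 in siPIK3R1, 1.63 in miR-32, 1.31 in the miRNA combination, 1.18 in miR-455, and 1.11 and -0.34 in miR-181b and miR-181a. CXCL10 and CXCL11, all of whose differences are lower bounds, had a median of at least 4.62 in the siRNA combination and at least 4.34 in siPIK3R3, while CXCL10 alone gave at least 1.12 in the miRNA combination and 0.85 in miR-181b. Over all probes compared, the median lay between -0.03 and 0.01 in each transfection. All 8 comparisons share 1 control array. Against the median of the 8 other arrays in its place, the NF-kB-type medians were -0.33 in miR-455, -0.79 in siPIK3R1, -1.09 in miR-181a and -1.14 in miR-32, and they stayed above 1 in the other 4 transfections. For the transfections below 0, that reference includes all of those other 4, so it does not test the control array.

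**Figure D2:**
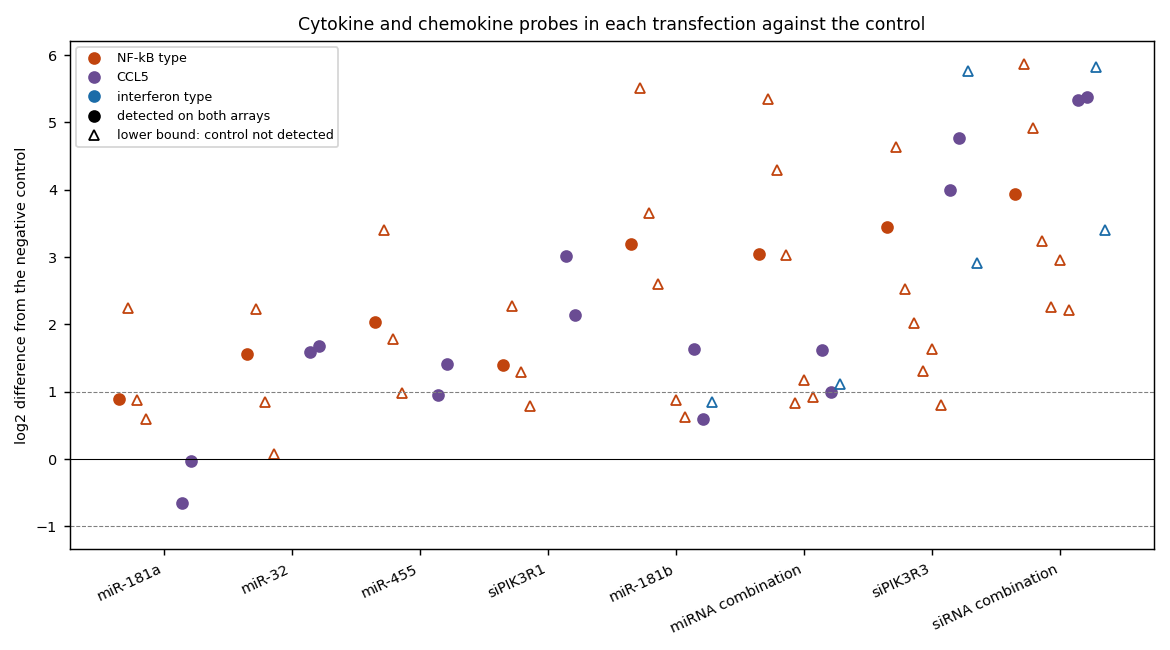
Log2 difference from the control (vertical axis) of each probe in each of the 8 transfections (horizontal axis), colored by class, with open triangles for lower bounds and dashed lines at 2-fold. Of the NF-kB-type probes, CXCL8 ILMN_2184373 alone reaches beyond 5, in miR-181b and both combinations. Interferon-type probes reach beyond 2.9 in siPIK3R3 and the siRNA combination only.

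Transfections were also set directly against each other, in 7 pairs chosen after their values had been seen, which removes the shared control. The siPIK3R3 and miR-181b arrays were under 2-fold apart in IL6 and far apart in the interferon-type chemokines. CXCL10 was 30.3-fold higher in siPIK3R3 than in miR-181b, the highest of the 13183 probes detected on both arrays, and CCL5 ILMN_1773352 was the second, 18.1-fold higher. CCL5 ILMN_2098126 was 5.15-fold higher, and CXCL11, not detected in miR-181b, at least 6.82-fold. The neutrophil chemokines went the other way, with log2 differences of -0.87 and -1.13 for the CXCL8 probes and -0.58 for CXCL2. IL6 (0.25), IL1B (0.18) and IL1A (0.75) were under 2-fold apart. CCL20, of NF-kB type and not detected in miR-181b, was at least 2.26-fold higher in siPIK3R3. In all, 5 members were at least 2-fold higher in siPIK3R3 (3.88% of all probes) and 1 lower (2.81%). CXCL11 and CCL20, counted among the higher ones, could not have come out lower. With arrays scaled to an equal median, which moved the median of all probes here to 0.30, the lower one, CXCL8 ILMN_1666733, was at -0.78, short of 2-fold, and IL1A at 1.11, past it. On that scale IL6 was at 0.64.

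The combinations also lay furthest apart, among the members, in CCL5, CXCL10 and CXCL11. Of 13933 probes detected on both arrays, CXCL10 had the highest difference, 26.2-fold higher in the siRNA than in the miRNA combination, and the CCL5 probes ranked 2nd and 3rd, at 20.8-fold and 13.1-fold. CXCL11 ranked 4th, 10.8-fold higher. IL6 (1.86-fold), CXCL8 (1.44-fold and 1.54-fold) and CXCL2 (1.16-fold) were less than 2-fold higher, and CXCL2 turned to -0.02 on the log2 scale when arrays were scaled to an equal median, while IL1A was 3.45-fold, CCL20 2.68-fold and IL1B 2.45-fold higher. Every member was detected on both of these arrays, so none of these values is a bound. In all, 7 members were at least 2-fold higher, against 1.78% of all probes.

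The siRNAs against the PI3K subunits did not give the same cytokine levels. CXCL10 was at least 49.9-fold higher in siPIK3R3 than in siPIK3R1, where it was not detected, and CXCL11 at least 6.85-fold. CXCL8 was 5.11-fold and 2.35-fold higher, IL6 4.15-fold and CXCL2 2.35-fold. CCL5 was 6.18-fold higher by ILMN_1773352 and 1.97-fold by ILMN_2098126. IL1A was at least 2.84-fold and CCL20 at least 2.27-fold higher. The count of members at least 2-fold higher was 9, against 5.84% of all probes, and it was 5 without background correction. It includes CXCL10, CXCL11, IL1A and CCL20, which were not detected in siPIK3R1 and so could not have come out lower. The count thus describes the list and does not test it.

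The siRNA combination set against siPIK3R3 gave 6 members at least 2-fold higher, against 4.78% of all probes, but the count rests on the scaling. With arrays scaled to an equal median it was 1, CXCL8 ILMN_1666733, at 1.92 on the log2 scale. CXCL10 was 0.06 higher as quantile normalized and -0.43 on the median scale, so these arrays did not settle an order for it. IL6, CXCL11 and CCL5 ILMN_1773352 were 0.49, 0.50 and 0.60 higher as quantile normalized. On the median scale they were at 0.025, 0.0055 and 0.084, so their order was not settled either. Median scaling moved the median of all probes in this pair to -0.34, to 0.37 in siPIK3R3 against siPIK3R1, and to between -0.30 and 0.26 in the comparisons with the control.

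Among the microRNAs, miR-181b had more CXCL8, CXCL2 and IL6 signal than miR-181a. Their 5p arms share a seed, but the arm used is not given. The CXCL8 probes were 9.55-fold and 6.90-fold higher, IL6 4.96-fold and CXCL2 4.03-fold, and CCL5 was 4.86-fold higher by ILMN_2098126 and 1.54-fold by ILMN_1773352. These 5 members at least 2-fold higher compare with 3.16% of all probes. In the miRNA combination against miR-181b, 0 of 10 members compared were at least 2-fold higher, near the 0.964% of all probes. That count therefore says nothing particular about the members. Their log2 differences ran from -0.16 to 0.70, and the upper end is a lower bound, for CCL20. Between miR-455 and miR-32, 2-fold was reached in miR-455 by 0.0183% of 16418 probes, and CXCL8 ILMN_2184373 was the highest of the 14616 detected on both arrays, at 2.26-fold. The other CXCL8 probe (1.92-fold) ranked 5th of these and CXCL2 (1.89-fold) 11th, while the CCL5 probes were lower, at -0.64 and -0.26 on the log2 scale.

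**Figure D3:**
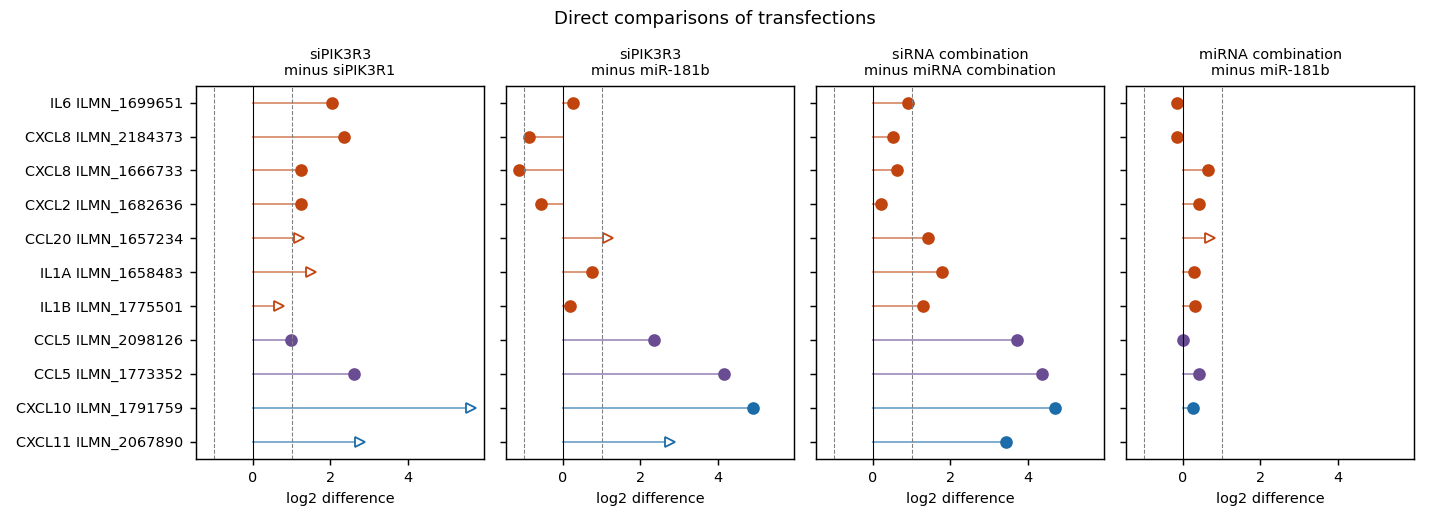
Log2 difference (horizontal axis) of each probe (vertical axis) in 4 direct comparisons of transfections, colored by class as in the plot of differences from the control, with open triangles for lower bounds and dashed lines at 2-fold. CXCL10, CXCL11 and CCL5 lie far to the right in siPIK3R3 minus miR-181b and in the siRNA minus the miRNA combination, while CXCL8 and CXCL2 lie between -1.13 and 0.62 there.

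Set side by side over the 9 arrays, neither the other classes nor all NF-kB-type members followed the array order of IL6. In siPIK3R3, IL6 was above its levels in miR-181b and the miRNA combination, while both CXCL8 probes and CXCL2 were below theirs. IL6 in miR-181b (12.19) and in the miRNA combination (12.03) lay within 0.41 of siPIK3R3 (12.44), while CXCL10 in these 2 arrays lay at least 4.65 below siPIK3R3. In siPIK3R1, IL6 (10.39) was below its level in miR-181b, whereas CCL5 was above it on both probes. In miR-181a, IL6 was 0.89 above the control and CCL5 was not. The arrays with the 4 highest IL6 levels had mean raw signals of 223 (siRNA combination), 270 (miRNA combination), 361 (miR-181b) and 392 (siPIK3R3), against 343 in siPIK3R1, 406 in the control and 418 to 468 in the other 3. The part of array brightness in these levels was not tested.

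**Figure D4:**
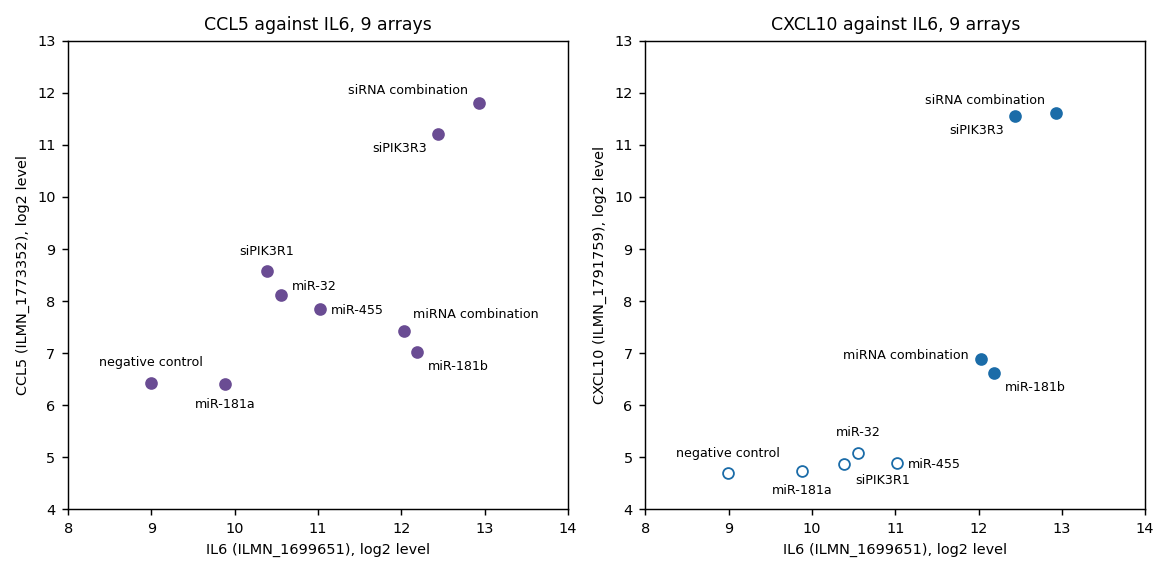
Log2 level of CCL5 (left) and CXCL10 (right), on the vertical axes, against that of IL6 on the horizontal axes, 1 point per array, open where CXCL10 was not detected. The 4 arrays with IL6 levels above 12 split into siPIK3R3 and the siRNA combination with CXCL10 above 11, and miR-181b and the miRNA combination with CXCL10 under 7.

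Of 6459 other probes detected on at least 5 arrays with a range of at least 1 on the log2 scale, ILMN_1812297 was the most alike in pattern to CXCL8 ILMN_1666733 and also to CXCL2 and to CXCL8 ILMN_2184373. ILMN_1653871 was the most alike to IL6. Likeness was the Pearson correlation of levels over the 9 arrays, which was 0.99 for the first and the last of these pairs, was the highest of many searched, and is a description only.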

How the data were processed

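Biotin-labeled cRNA from Trizol-extracted RNA was hybridized to Illumina arrays, per the labels' protocols. The deposited raw table gives a signal intensity on a linear scale per probe and array and a detection p-value beside it, per the file headers. A second deposited table holds intensity values processed by the authors on a linear scale, by a method not given in the sources used here. Function neqc of limma 3.58.1 (R 4.3.3, offset 16) turned the raw intensities into background-corrected, quantile-normalized log2 values, and further steps used Python 3.11.15. A probe was compared where its detection p was under 0.01 on either array, an undetected value being raised to the lowest detected value of its array. A threshold of 2-fold stood in for a test, which single arrays do not allow. The comparison of arrays was tested on simulated data, with changes placed only in probes brighter than the median detected probe. Lower bounds were checked only on a small made-up example. The simulation therefore does not cover members near background. The members, lists and classes were chosen with earlier results of these data known, and the motif letters with the promoters in view. Likeness was reported for 2 probes because the files pair no numbers with genes. Lists of other pathway genes were not analysed here for that reason.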

Additional observations from a re-analysis of the deposited data

How the results depend on the processing

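Of 47 differences from the control of at least 2-fold, all 47 kept their direction without background correction, with an offset of 50, with median scaling, in the authors' processed values, at a detection p under 0.05 and without a detection filter, and 41, 43, 46, 47, 47 and 47 of them stayed at 2-fold. Normalized without the combination arrays, an alternative added after seeing the data along with all those for direct pairs, 29 of 29 did. With the other probe of CXCL8 or CCL5, 10 of 14 stayed at 2-fold. A median or difference is called moved below at a change of 0.58 or more, and a count at over 1.5 times.

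The reference mattered most, and the alternative is itself made mainly of arrays other than the control, which was transfected as well. For miR-32, miR-455, miR-181a and siPIK3R1 it includes siPIK3R3, miR-181b and both combinations, where IL6 and CXCL8 were highest. Turns against it therefore cannot tell whether the control array was unusual. With the median level on the 8 other arrays in place of the control, 37 of the 47 kept their direction and 31 stayed at 2-fold. CXCL8 ILMN_2184373 turned to -0.050 in miR-455, -1.79 in miR-32, -1.77 in miR-181a and -1.74 in siPIK3R1, and ILMN_1666733 to -0.13 in miR-455 and -0.86 in siPIK3R1. IL6 turned to -0.98 in miR-32, -0.27 in miR-455 and -1.14 in siPIK3R1, and CCL5 ILMN_2098126 to -0.041 in miR-32. NF-kB-type medians became -0.33 in miR-455, -1.14 in miR-32, -1.09 in miR-181a, -0.79 in siPIK3R1, 1.56 in miR-181b, 1.25 in the miRNA combination, 2.35 in the siRNA combination and 1.23 in siPIK3R3. CCL5 medians became -0.30 in miR-455, 0.22 in miR-32, -1.93 in miR-181a, -0.47 in miR-181b, -0.27 in the miRNA combination, 3.95 in the siRNA combination, 2.98 in siPIK3R3 and 1.17 in siPIK3R1. Higher counts became 0 in miR-455, miR-32 and miR-181a and 1 in siPIK3R1, and lower counts 3 in miR-32, 5 in miR-181a and 2 in siPIK3R1.

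Without background correction the NF-kB-type median was 2.23 in miR-181b, 2.12 in the miRNA combination, 1.29 in siPIK3R3 and 2.31 in the siRNA combination, the interferon-type median was 3.61 in the siRNA combination and 3.36 in siPIK3R3, and the count for siPIK3R3 over siPIK3R1 was 5. With an offset of 50 the NF-kB-type median was 2.44 in the miRNA and 2.64 in the siRNA combination, and the interferon-type median 3.71 in siPIK3R3 and 3.97 in the siRNA combination. Without a detection filter the NF-kB-type median was 0.44 in miR-32, 2.62 in siPIK3R3 and 3.93 in the siRNA combination, the interferon-type median was 5.29 and 5.57 in the latter arrays, and the count was 2 in miR-181a, 9 in miR-181b and 9 for miR-181b over miR-181a. Median scaling gave 2 for miR-455 over miR-32 and 1 for the siRNA combination over siPIK3R3. A detection p under 0.05 gave 2 in miR-181a. The authors' processed values gave 2 in miR-181a and 3 for miR-455 over miR-32. A threshold of 1.5-fold gave 4 higher and 1 lower in miR-181a, 9 in miR-181b, 8 for miR-181b over miR-181a, 3 for miR-455 over miR-32 and 2 for the miRNA combination over miR-181b. Apart from the changes that follow from fewer or more probes compared, the cause was not tested. No paired analysis was possible because every group holds a single array, which also leaves no replicate to omit. Signal over background limits CXCL8, CXCL2, IL1A, IL1B, CCL20, CXCL10 and CXCL11, whose control levels are bounds.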
